A study of Mus musculus with 16 samples.

Results

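Type I interferon stimulated genes were measured as a set of 37 named genes in the draining and non-draining lymph nodes of mice carrying MC38 tumor cells. The set was fixed by symbol, and all 37 genes were found once each among the 48440 genes of the count tables. Their unique molecular identifiers (UMIs, each standing for 1 captured mRNA molecule) were summed per library and cell type, and are given per 1000000 UMIs of that cell type in that library (CPM). For these genes and the other interferon lists, the UMI totals were those of genes that passed a filter on low counts. These totals were scaled between libraries by the TMM method. CPM of cell type markers used plain totals.

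Type I interferons are secreted when cells sense viral or displaced nucleic acid, and they act through a receptor shared by almost all cell types. The receptor's kinases activate transcription factors, STAT2 and its partner IRF9 among them, that bind interferon-stimulated response elements near the genes measured here. Many of these genes also respond to interferon-gamma and to type III interferon, so their mRNA alone does not name the ligand. In a lymph node, endothelial cells of the lymphatic sinuses meet the incoming lymph first, and fibroblastic reticular cells form the scaffold on which lymphocytes and dendritic cells move.

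Single cells came from inguinal lymph nodes of C57Bl/6 mice aged 8 weeks and were enriched for podoplanin, a surface protein of lymphatic endothelium and fibroblastic reticular cells. MC38, a mouse colon carcinoma line, was placed under the skin of the flank as 500000 cells, either live or fixed beforehand in paraformaldehyde so that they could not grow. On day 12 the node draining that flank and the opposite, non-draining node were taken. There were 4 libraries from naive mice, which received no cells. With live cells there were 3 libraries of draining and 3 of non-draining nodes, and with fixed cells likewise 3 and 3, which makes 5 groups. The labels give the tissue as lymph node and do not tie a draining library to the non-draining library of the same mouse. Both nodes of a mouse were collected, so the 3 draining and 3 non-draining libraries of a treatment share animals. A single tumor line and a single time point were studied.

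After filtering, 50386 of 68741 barcodes were kept, at 1065 to 5132 cells and a median of 3421 to 5098 UMIs per cell in a library. Cells were assigned to types by marker genes outside the 37, and 34864 cells (69.2%) received a type, while 11859 had too few markers and 3663 carried markers of 2 lineages. The types discussed most are floor lymphatic endothelial cells (fLECs, which line the inner wall of the subcapsular sinus, 1101 cells), ceiling LECs (cLECs, its outer wall, 3474 cells) and medullary LECs (MedLECs, 1123 cells). Beside them stand marginal reticular cells (MRCs, fibroblastic cells under the sinus, 1514 cells), T-zone reticular cells (TRCs, 3451 cells), medullary reticular cells (MedRCs, 3211 cells) and monocytes or macrophages (2885 cells). The cells named fLECs carried 15670 to 26800 CPM of their own markers (Glycam1, Coch, Madcam1, Ccl20) in live draining nodes and 12640 to 16290 in live non-draining nodes, against at most 48.6 CPM of the cLEC markers in any library. Cells were assigned by such markers, so these values describe the assignment and do not test the name. The paper reports an increase of Ccl20 in fLECs of the tumor-draining node, so this marker depends on treatment. Among these types the thinnest sums were 23 fLECs and 15 MRCs in a library, and their number limits the precision of low genes there. The same limit holds for other types reported below. Their thinnest sums were 11 plasma cells, 11 cortical LECs, 15 blood endothelial cells and 19 T cells in a library.

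The 37 genes fall into groups by role, namely 4 RNA sensors, 6 enzymes of the OAS and PKR families, 9 antiviral effectors, 3 transcription factors, 3 genes of the ISG15 system, 2 ADP-ribosyltransferases and 10 other interferon-induced genes. They lie on 15 chromosomes. The OAS genes Oasl2, Oasl1, Oas2, Oas3 and Oas1a all lie on chromosome 5, the 3 Ifit genes on chromosome 19, and Xaf1, Slfn5, Slfn2, Dhx58 and Ifi35 on chromosome 11. Near-identical relatives outside the set (for Ifit3, Oas1a, Ifi27l2a and Ifi204) can share reads with a member, so the values of these 4 genes are uncertain in that respect.

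The promoters of the set were searched for the response element. The genes were chosen as interferon stimulated genes, so a high share with this element follows largely from that choice. RefSeq windows from 250 bases before to 50 bases after the start site (GRCm38.p6) were matched by symbol for 27 of the 37 genes. The core of the response element (GAAA, 2 bases of any kind, then GAAA), searched on both strands with overlapping matches counted, was present in 14 of these 27 (51.9%) and in 3.99% of all 27025 genes with a window. Among 99 other genes of the interferon lists with a window it was present in 44 (44.4%). Members that rose with the smallest p in fLECs did not all hold it. Of the 4 members with the smallest p between live nodes in fLECs, Irf7, Slfn2 and Ifi44 had no match and Ifi27l2a had no window. The 250 bases before the start site are shown for 4 other members that rose in fLECs of live draining nodes. They were picked because they hold this core there, and the matching bases are in capitals.
Bst2, chr8:71537473-71537722, minus strand: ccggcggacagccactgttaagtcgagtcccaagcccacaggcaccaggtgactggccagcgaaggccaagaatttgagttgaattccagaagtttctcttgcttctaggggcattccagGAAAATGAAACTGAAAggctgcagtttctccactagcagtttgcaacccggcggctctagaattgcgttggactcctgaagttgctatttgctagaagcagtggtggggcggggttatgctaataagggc
Isg15, chr4:156200819-156201068, minus strand: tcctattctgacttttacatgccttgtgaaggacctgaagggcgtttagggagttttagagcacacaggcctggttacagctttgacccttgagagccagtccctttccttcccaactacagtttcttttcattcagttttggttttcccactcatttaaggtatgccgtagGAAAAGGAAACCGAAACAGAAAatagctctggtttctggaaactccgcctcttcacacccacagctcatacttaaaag
Trim30a, chr7:104465194-104465443, minus strand: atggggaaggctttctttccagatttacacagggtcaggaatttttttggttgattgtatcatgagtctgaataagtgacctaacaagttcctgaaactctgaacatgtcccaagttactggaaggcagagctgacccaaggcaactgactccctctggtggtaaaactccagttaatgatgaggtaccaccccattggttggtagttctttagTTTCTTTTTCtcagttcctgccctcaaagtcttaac
Ifit1, chr19:34640639-34640888, plus strand: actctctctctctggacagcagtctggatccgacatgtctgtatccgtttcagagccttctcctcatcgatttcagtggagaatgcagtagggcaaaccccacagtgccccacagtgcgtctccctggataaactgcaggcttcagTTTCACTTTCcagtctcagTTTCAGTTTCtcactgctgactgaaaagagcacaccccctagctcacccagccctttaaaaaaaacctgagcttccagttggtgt
In Isg15 there were 3 overlapping matches and in Bst2 there were 2, so that each runs as a single block of capitals. In Trim30a the match reads on the opposite strand and lies 36 bases before the start site, and in Ifit1 there were 2 separate matches. A match describes the letters of the window and is not a measured binding site.

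In fLECs of live draining nodes the interferon stimulated genes rose together. The summed level of the 37 genes was 7606, 7744 and 6949 CPM in live draining libraries A, B and C and 2796, 2650 and 3321 CPM in live non-draining libraries, a ratio of the means of 2.54. In fixed draining libraries it was 2743, 2684 and 2719 CPM and in fixed non-draining libraries 2946, 3157 and 3229 CPM. The 4 naive libraries held 3285 to 4305 CPM, so the live draining libraries lay above all 13 others. The rise was not carried by the most abundant gene, since without Bst2 the sum was 5213 to 5912 CPM in live draining and 1767 to 2411 CPM in live non-draining libraries.

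**Figure D1:**
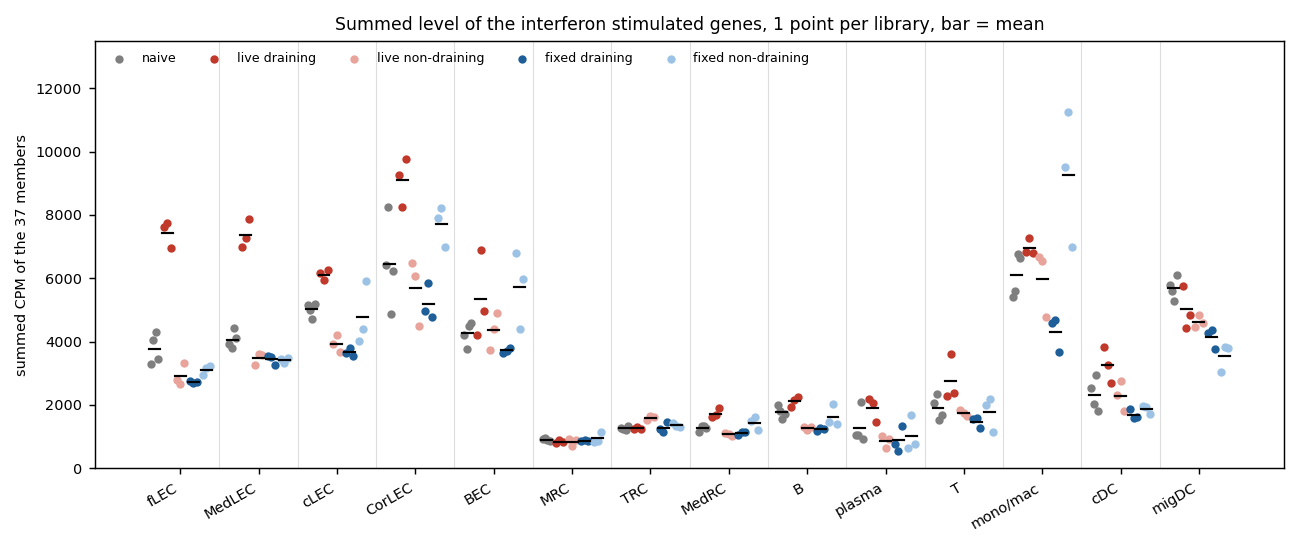
Summed CPM of the 37 interferon stimulated genes (y axis) by cell type (x axis), with 1 point per library, colors for the 5 groups and a bar at each group's mean. In fLECs the 3 live draining libraries lie at 6949 to 7744 CPM, above every other library of that cell type. In TRCs the live non-draining libraries are the highest. In monocytes or macrophages (mono/mac) fixed non-draining libraries A and B are the highest, and library C (7002 CPM) lies below live draining library B (7277 CPM).

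Of the 37 genes, 35 passed the filter on low counts in fLECs (Oas2 and Oas3 did not), and 30 were higher in live draining than in live non-draining nodes at an adjusted p under 0.05 in edgeR's quasi-likelihood test. None was lower. Among all 9803 genes tested, 8.08% were called higher in this comparison. The median log2 fold change of the 35 genes was 1.25. The 5 that passed the filter and were not called were Isg20, Mx1, Mx2, Rsad2 and Cmpk2, with log2 fold changes from 0.49 (Cmpk2) to 2.22 (Rsad2).

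Transcription factors of the pathway were all higher. Irf7 (chromosome 7, 141262706 to 141266481, GRCm38), the factor that amplifies interferon production, was at 315.7, 314.1 and 266.7 CPM in live draining libraries and at 41.1, 44.6 and 43.2 CPM in live non-draining libraries. Its naive libraries held 62.1, 79.2, 67.4 and 80.2 CPM, its fixed draining libraries 33.3, 29.0 and 37.1 CPM and its fixed non-draining libraries 36.3, 48.7 and 64.6 CPM. The live draining libraries were separate from all others. The log2 fold change between the live nodes was 2.81 ± 0.15 (SE, n = 3 against 3; edgeR, adjusted p = 8.08e-16). Stat2 and Irf9, parts of the complex that binds the response element, had log2 fold changes of 0.75 ± 0.15 for Stat2 (edgeR, adjusted p = 4.63e-04) and 0.56 for Irf9 (edgeR, adjusted p = 7.08e-03).

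Within the ISG15 system, a ubiquitin-like protein with its ligase and protease, all 3 genes rose. Isg15 (chromosome 4, 156199424 to 156200818), the modifier itself, was at 702.9, 747.7 and 626.6 CPM in live draining libraries and at 116.5, 136.1 and 199.7 CPM in live non-draining libraries. It was at 137.6, 325.8, 320.9 and 192.7 CPM in naive, 98.5, 120.7 and 102.7 CPM in fixed draining and 121.1, 278.3 and 228.2 CPM in fixed non-draining libraries. No library of another group reached the lowest live draining value. The log2 fold change was 2.24 ± 0.22 (SE; edgeR, adjusted p = 1.15e-09). Usp18, the protease that removes ISG15 and also dampens receptor signaling, changed by 1.91 ± 0.30 (adjusted p = 1.34e-05), from 11.4, 15.6 and 20.6 CPM to 53.8, 60.5 and 55.7 CPM. Herc6, the mouse ISG15 ligase, changed by 0.83 (adjusted p = 1.30e-03).

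All 4 RNA sensors rose, though by different amounts. Ifih1, which encodes the long double-stranded RNA sensor MDA5, was at 111.8, 80.1 and 88.0 CPM in live draining and 36.6, 31.2 and 61.8 CPM in live non-draining libraries, a log2 fold change of 1.13 ± 0.21 (edgeR, adjusted p = 1.00e-04). Dhx58, the regulator LGP2, changed by 1.56 (adjusted p = 1.14e-04) and Ddx60 by 0.74 (adjusted p = 0.0273). Ddx58, which encodes RIG-I, was already well expressed in every group, and its 210.1, 241.9 and 205.8 CPM in live draining libraries stood above 164.5, 158.4 and 179.1 CPM in live non-draining libraries (0.40 ± 0.11, adjusted p = 0.0134) but overlapped the naive libraries at 187.1 to 220.4 CPM.

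Enzymes of the OAS family make the second messenger that activates RNase L, and PKR (Eif2ak2) arrests translation upon binding double-stranded RNA. The 4 that passed the filter all rose. Oasl2, an OAS-like protein, was at 134.6, 155.5 and 129.5 CPM in live draining and 17.1, 13.4 and 30.9 CPM in live non-draining libraries, which did not overlap, with a log2 fold change of 2.81 ± 0.27 (edgeR, adjusted p = 6.77e-10). Oas1a changed by 2.92 ± 0.58 (adjusted p = 3.60e-04), from 0, 6.69 and 4.12 CPM to 15.5, 25.9 and 24.6 CPM, and Oasl1 by 2.00. Eif2ak2 changed by 0.72 ± 0.17 (adjusted p = 3.17e-03).

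Among the 9 antiviral effectors, 4 rose. Bst2 (chromosome 8, 71534255 to 71537456), or tetherin, which holds budding virus at the cell surface, was at 1761, 1831 and 1736 CPM in live draining libraries and 962.8, 883.3 and 910.0 CPM in live non-draining libraries. The 4 naive libraries held 952.3 to 1221 CPM, the fixed draining libraries 853.2 to 876.4 CPM and the fixed non-draining libraries 903.1 to 1025 CPM. All live draining libraries were thus above all others, with a log2 fold change of 0.95 ± 0.09 (SE; edgeR, adjusted p = 6.18e-10). Ifit1 and Ifit2, which bind foreign RNA caps and ends, changed by 1.84 and 2.83 (adjusted p = 2.57e-05 and 1.69e-08), and Ifit3 by 2.05 (adjusted p = 9.92e-04). Rsad2, the antiviral enzyme viperin, was at 41.4, 10.2 and 23.3 CPM in live draining and 0, 2.23 and 16.5 CPM in live non-draining libraries and was not called (edgeR, adjusted p = 0.122). Mx1, a dynamin-like GTPase, was at 58.0, 69.9 and 50.5 CPM against 25.1, 29.0 and 72.1 CPM and was not called either (edgeR, adjusted p = 0.107).

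The remaining genes included the widest differences of the set. Ifi27l2a (chromosome 12, 103442167 to 103443680), a small protein of the ISG12 family, was at 1010, 981.7 and 1086 CPM in live draining libraries and at 115.3, 120.5 and 82.4 CPM in live non-draining libraries. It was at 138.6, 162.3, 274.1 and 139.3 CPM in naive, 129.6, 89.8 and 81.5 CPM in fixed draining and 83.4, 68.1 and 133.5 CPM in fixed non-draining libraries, so that the live draining libraries stood far above the rest. The log2 fold change was 3.26 ± 0.18 (SE; edgeR, adjusted p = 1.43e-15). Ifi204 (chromosome 1, 173747293 to 173766943), a DNA-binding HIN200 protein, was at 83.8, 75.4 and 46.6 CPM against 3.43, 4.46 and 2.06 CPM (4.34 ± 0.43, adjusted p = 1.30e-09). Slfn2 (chromosome 11, 83065112 to 83070678), a Schlafen protein linked to immune cell quiescence, was at 162.5, 223.0 and 182.5 CPM against 32.0, 29.0 and 51.5 CPM (2.38 ± 0.19, adjusted p = 7.34e-12).

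Ifi44 (chromosome 3, 151730922 to 151749960) was at 298.1, 287.4 and 235.6 CPM in live draining and 79.9, 78.1 and 119.4 CPM in live non-draining libraries, again without overlap (1.60 ± 0.14, adjusted p = 8.71e-11). Trim30a, an E3 ubiquitin ligase family member, was at 444.1, 406.8 and 369.0 CPM against 179.3, 236.4 and 207.9 CPM, a log2 fold change of 1.00 ± 0.12. Parp14 (chromosome 16, 35832874 to 35871544), an ADP-ribosyltransferase, was expressed in every group. Its levels were 347.8, 333.8 and 258.9 CPM in live draining and 234.1, 185.1 and 245.0 CPM in live non-draining libraries (0.50 ± 0.13, adjusted p = 7.11e-03), and live draining library C lay inside the range of the naive libraries, 249.0 to 294.7 CPM.

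With fixed tumor cells the rise was not seen in fLECs. None of the 35 genes was called in either direction between fixed draining and fixed non-draining nodes by edgeR, and 0 of 35 were called by DESeq2. Of all genes tested, 0.0612% were called by edgeR. At an unadjusted p under 0.05 in edgeR there were 9 of the 35 genes. The share of all genes at that threshold was not taken, so this count is not read further. The median log2 fold change of the 35 genes was -0.31, toward lower values in draining nodes. The difference between the live and the fixed draining effect, tested as an interaction, was called for 23 of 35 genes, all with the live effect higher, where 3.07% of all genes were called higher. Irf7 led these with a difference of 3.27 (edgeR, adjusted p = 1.24e-09).

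The other comparisons of fLECs reuse these libraries, so their values are given side by side and are not independent. Live draining nodes were higher than fixed draining nodes for 35 of 35 genes (9.38% of all genes higher) and higher than naive nodes for 25 of 35 (10.3% higher). Live non-draining nodes were lower than naive nodes for 2 of 35 genes (0.0204% of all genes lower), and fixed draining nodes were lower than naive nodes for 7 of 35 (0.418% lower). Those 7 included Irf7 (-1.11), Isg15 (-1.18), Ifit1 (-1.86) and Slfn2 (-0.89).

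MedLECs, the LECs of the medullary sinuses through which lymph leaves, also rose in most genes of the set. Between live nodes 28 of 35 tested genes were higher and none was lower, where 5.86% of all genes were called higher, and the median log2 fold change was 1.23. The summed level was 6986 to 7873 CPM in live draining and 3272 to 3616 CPM in live non-draining libraries, a ratio of 2.12, whereas the ratio between the fixed nodes was 1.01. Between fixed nodes none of 35 genes was called (0.0519% of all genes), and the interaction was called for 17, all with the live effect higher (2.1% of all genes higher).

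Ifi27l2a in MedLECs was at 890.0, 736.8 and 1120 CPM in live draining, 150.3, 121.5 and 85.5 CPM in live non-draining and 176.1 to 276.5 CPM in naive libraries. Isg15 was at 500.5, 502.1 and 602.5 CPM in live draining and 95.6, 141.7 and 117.5 CPM in live non-draining libraries. Both were separate from every other group, with log2 fold changes of 2.85 ± 0.26 (edgeR, adjusted p = 1.54e-09) and 2.25 ± 0.19 (adjusted p = 2.25e-10). Rtp4, a chaperone for receptor trafficking, was at 134.6, 111.8 and 159.5 CPM against 34.2, 40.5 and 24.9 CPM (2.00 ± 0.22, adjusted p = 5.30e-08), and Oasl2 at 150.0, 136.2 and 117.2 CPM against 31.4, 32.4 and 49.9 CPM (1.90 ± 0.22, adjusted p = 1.29e-07).

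Bst2 in MedLECs was at 1145, 1266 and 1246 CPM in live draining and 961.8, 1045 and 694.6 CPM in live non-draining libraries (0.43 ± 0.13, adjusted p = 0.0233). Trim30a was at 492.3, 477.7 and 509.8 CPM against 199.5, 275.3 and 235.1 CPM (1.10 ± 0.14, adjusted p = 8.44e-07). Cmpk2 and Rsad2, a gene pair of nucleotide-based antiviral defense that was not called in fLECs, were called in MedLECs with log2 fold changes of 2.06 and 2.71 (adjusted p = 2.84e-03 and 0.0183). The count of 28 rested partly on live non-draining library A, without which it was 18.

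cLECs, on the outer sinus wall, held a higher summed level than fLECs in naive nodes, 4716 to 5198 against 3285 to 4305 CPM. Between live nodes 12 of 35 tested genes were higher and none lower, where 9.79% of all genes were called higher, and the median log2 fold change was 0.47. The summed level was 5946 to 6254 CPM in live draining and 3661 to 4206 CPM in live non-draining libraries. Ifi27l2a was at 2078, 1773 and 2045 CPM in live draining, 1214, 874.3 and 776.4 CPM in live non-draining and 1300 to 1553 CPM in naive libraries, so the live draining libraries were the highest. Its log2 fold change was 1.03 ± 0.13 (edgeR, adjusted p = 3.52e-07). Slfn2 changed by 0.91 ± 0.09 and Irf7 by 1.41 ± 0.19 (adjusted p = 4.12e-09 and 1.64e-06).

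Not all genes of the set followed in cLECs. Ifih1 was at 53.2, 54.0 and 46.9 CPM in live draining and 58.9, 58.0 and 54.2 CPM in live non-draining libraries (edgeR, adjusted p = 0.482). Between fixed nodes 4 of 35 genes were lower in draining nodes, namely Bst2, Oasl2, Ifi44 and Rtp4, where 0.059% of all genes were called lower. The live effect was higher than the fixed effect for 14 of 35 genes (6.64% of all genes higher). The count of 4 went to 0 without fixed draining library C or without fixed non-draining library C. Against naive nodes, cLECs of live draining nodes were higher for 8 of 35 genes (10.1% of all genes higher). The cells named cLECs also carried more fLEC markers in live draining (471.8 to 593.5 CPM) than in live non-draining nodes (36.0 to 125.2 CPM), and fewer of their own (2191 to 2391 against 3210 to 3306 CPM), and the part of this in the interferon result was not tested.

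The live draining effect itself was compared between LEC types, a comparison added after the values were seen. Per-library differences between 2 types of the same library were fitted with limma across all genes. The effect was larger in fLECs than in cLECs for 7 of 35 genes and smaller for none, where 2.53% of all genes were called in either direction. The 7 were Ifi27l2a, Slfn2, Irf7, Ifi44, Ifih1, Parp9 and Trim30a, with differences of log2 fold changes from 0.83 ± 0.17 for Trim30a (limma, adjusted p = 0.0181) to 2.20 ± 0.26 for Ifi27l2a (limma, adjusted p = 6.17e-04). MedLECs exceeded cLECs for 5 of 34 genes (1.11% of all genes), and fLECs and MedLECs differed for none of 34 (limma; 0.0648% of all genes). Between fixed nodes these 3 comparisons called no member, and 0%, 0.0106% and 0.0216% of all genes.

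Taking all LECs as a single type, 37 of 37 genes passed the filter and 36 were higher in live draining than in live non-draining nodes (15.4% of all genes higher), with 34 of 37 called for a higher live than fixed effect (9.73% of all genes). In the few cortical LECs (526 cells) 3 of 32 genes were higher (0.455% of all genes), namely Ifi27l2a, Irf7 and Isg15, and Isg15 was lower in fixed draining than in fixed non-draining nodes (-2.17, edgeR, adjusted p = 2.21e-03; 0.0152% of all genes lower). There the live effect was higher than the fixed effect for 2 genes (0.0304% of all genes). The count of 3 was 1 without live draining library B or C or live non-draining library A or C, and the count of 2 was 1 without fixed non-draining library A. In blood endothelial cells 2 of 30 genes rose and 1 fell (4.07% of all genes called), with Ifi27l2a at 2.41, Rtp4 at 0.91 and Slfn5 at -0.83. None was called in these cells without live draining library B or without live non-draining library A, and 1 was called without live draining library C or live non-draining library B.

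**Figure D2:**
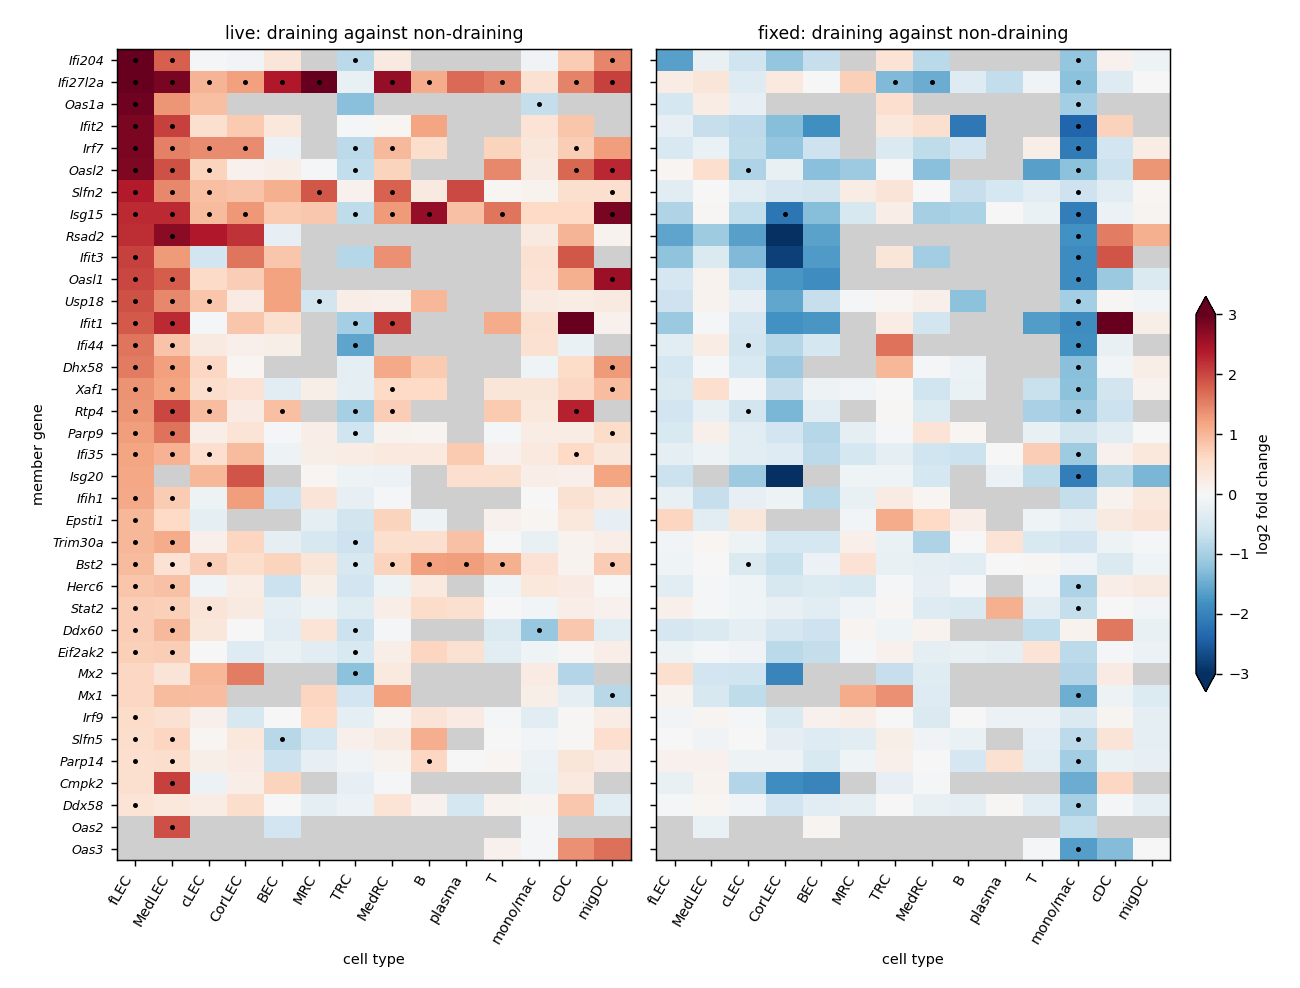
Log2 fold change (color) of the interferon stimulated genes (rows, ordered by their value in fLECs) in 14 cell types (columns), draining against non-draining, for live cells on the left and fixed cells on the right. Black dots mark an adjusted p under 0.05 in edgeR and grey marks genes under the count filter; the left panel holds 30 dots in fLECs and 28 in MedLECs, and the right panel holds 26 dots of lower genes in monocytes or macrophages (mono/mac).

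Directly beneath the floor endothelium, MRCs showed little of this pattern. In MRCs 22 of 37 genes passed the filter, of which 2 were higher and 1 lower in live draining nodes, where 13.3% of all genes were called. The summed level was 799.5 to 885.4 CPM in live draining and 718.9 to 913.5 CPM in live non-draining libraries. Without Usp18, the gene with the highest mean CPM in MRCs, it was 647.9 to 732.6 against 531.1 to 658.6 CPM, ranges that overlapped. After thinning of each cell to the same number of UMIs, the live nodes were separate. Live draining libraries held 1.656 to 1.909 UMIs of the set per cell and live non-draining libraries 1.207 to 1.464. The live draining values lay inside the ranges of naive (1.604 to 2.013), fixed draining (1.567 to 2.0) and fixed non-draining libraries (1.406 to 2.067). Ifi27l2a was at 38.6, 40.8 and 42.3 CPM in live draining and 3.32, 0 and 11.2 CPM in live non-draining libraries, and at most 13.5 CPM in any other library. Its log2 fold change was 3.26 ± 0.43 (edgeR, adjusted p = 8.21e-07), although its level stayed far below that of fLECs. Slfn2 was at 24.8, 35.4 and 20.3 CPM against 11.6, 5.87 and 0 CPM (1.87 ± 0.46, adjusted p = 4.16e-03). Irf7 did not pass the filter in MRCs and was not tested there. It was at 7.37, 10.2 and 8.37 CPM in live draining libraries and at most 5.79 CPM in any other library. Of the 37 genes, 8 had every live draining library above every live non-draining library, and 3 had every one below.

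Usp18 went the other way in MRCs. It was at 151.6, 152.8 and 167.4 CPM in live draining and 258.6, 187.8 and 224.5 CPM in live non-draining libraries, and all 10 libraries of the naive and fixed groups were above the live draining ones. The log2 fold change was -0.54 ± 0.13 (edgeR, adjusted p = 3.11e-03). Slfn5, Bst2 and Ddx58 were not called, and Slfn5 was at 86.1, 80.5 and 65.2 CPM in live draining against 109.4, 93.9 and 138.4 CPM in live non-draining libraries (edgeR, adjusted p = 0.0505). Between fixed nodes none of 22 genes was called (0.01% of all genes), and the interaction called none (4.14% of all genes). The draining effect on Usp18 was larger in fLECs than in MRCs by 2.21 ± 0.34 (limma, adjusted p = 7.67e-03), and 3 of 22 genes differed in this way (1.38% of all genes). The summed MRC markers were lower in live draining (5766 to 5889 CPM) than in live non-draining libraries (10010 to 10490 CPM), and their part in these values was not tested.

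In TRCs, which organize the T zone with the chemokines CCL19 and CCL21, the order of the live nodes was turned. Between live nodes 13 of 33 tested genes were lower in draining nodes and none was higher, where 4.49% of all genes were called lower, and the median log2 fold change was -0.48. The summed level was 1253 to 1295 CPM in live draining and 1540 to 1639 CPM in live non-draining libraries. The naive libraries held 1206 to 1328 CPM, the fixed draining libraries 1155 to 1449 CPM and the fixed non-draining libraries 1300 to 1437 CPM, so on this scale the live non-draining libraries were above all others. After thinning of each cell to 2000 UMIs, live non-draining libraries held 2.74 to 2.88 UMIs of the set per cell and live draining libraries 2.49 to 2.65. Naive libraries held 2.25 to 2.72 and fixed non-draining libraries 2.37 to 2.61. Fixed draining libraries, at 2.19 to 3.05, overlapped the live non-draining ones. Against naive nodes, 4 of 33 genes were higher in live non-draining TRCs (0.572% of all genes higher), while live draining TRCs had 2 higher and 3 lower genes (12.1% called).

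Bst2 in TRCs was at 297.0, 278.4 and 266.5 CPM in live draining, 385.0, 442.5 and 352.5 CPM in live non-draining and 297.0 to 349.4 CPM in naive libraries (-0.48 ± 0.08, adjusted p = 5.37e-05). Oasl2 was at 29.7, 30.9 and 30.9 CPM in live draining and 51.6, 44.9 and 56.5 CPM in live non-draining libraries (-0.75 ± 0.14, adjusted p = 2.25e-04). Ifi44 was at 7.94, 4.47 and 4.46 CPM in live draining and 8.05, 25.4 and 23.4 CPM in live non-draining libraries (-1.58 ± 0.33, adjusted p = 1.03e-03), so live non-draining library A lay near the draining libraries. Trim30a fell by 0.63 on the log2 scale (adjusted p = 3.74e-03). Ifi27l2a was not called between live nodes, at 113.6, 157.4 and 130.7 CPM in live draining, 144.4, 192.9 and 140.4 CPM in live non-draining and 37.4 to 67.9 CPM in naive libraries, and it was lower in fixed draining than in fixed non-draining nodes (-1.33 ± 0.21, adjusted p = 1.36e-03), the only one of 33 genes called there (0.00817% of all genes lower). The interaction called 2 of 33 genes (2.22% of all genes).

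The count of 13 in TRCs depended on the setting. It was 7 with DESeq2 and 0 with at most 50 cells per library, and it was 7 without live draining library B, 8 without live non-draining library A and 8 without live non-draining library C (7 lower and 1 higher). The median kept its sign throughout (-0.54 to -0.18 over 23 settings). TRC markers were at 30970 to 34290 CPM in live draining and 39230 to 43330 CPM in live non-draining libraries, and their part in the result was not tested.

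MedRCs, the fibroblastic cells of the medulla, had 8 of 31 tested genes higher in live draining nodes and none lower, where 5.95% of all genes were called higher. The 8 were Ifi27l2a, Bst2, Slfn2, Isg15, Xaf1, Ifit1, Irf7 and Rtp4. Ifi27l2a was at 306.2, 344.0 and 511.7 CPM in live draining and 93.5, 39.8 and 39.4 CPM in live non-draining libraries, a log2 fold change of 2.64 ± 0.26 (edgeR, adjusted p = 5.79e-09). Bst2 was at 185.5, 161.1 and 197.1 CPM against 125.6, 127.7 and 87.9 CPM. Without live non-draining library B or C the count of 8 was 5 or 4. The live effect was higher than the fixed effect for 6 of 31 genes (1.94% of all genes higher), and over all fibroblastic cells the interaction called 3 of 36, 2 of them with the live effect higher (5.98% of all genes higher). That count of 3 was 1 without live non-draining library C, fixed draining library A or B or fixed non-draining library B, and 5 without fixed draining library C. The draining effect was larger in MedRCs than in TRCs for 2 of 31 genes, Ifi27l2a (3.06 ± 0.53, limma, adjusted p = 0.0247) and Bst2 (1.16 ± 0.17, limma, adjusted p = 9.67e-03), where 0.513% of all genes were called.

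Monocytes and macrophages differed between the fixed nodes and hardly between the live nodes. Between live nodes all 37 genes passed the filter, none was higher and 2 were lower in draining nodes, where 3.09% of all genes were called lower. These were Ddx60, at 57.4, 83.8 and 62.3 CPM in live draining and 193.7, 80.9 and 157.6 CPM in live non-draining libraries (-1.14 ± 0.23, adjusted p = 2.88e-03), and Oas1a (-0.71 ± 0.21, adjusted p = 0.0452). Without the count filter or with the replicate letter as a block, 5 genes were called, 3 of them higher.

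Between fixed nodes 26 of 37 genes were lower in draining nodes and none was higher, where 1.86% of all genes were called lower, and the median log2 fold change was -1.06. The summed level was 3669 to 4671 CPM in fixed draining and 7002 to 11250 CPM in fixed non-draining libraries, with 5419 to 6776 CPM in naive, 6786 to 7277 CPM in live draining and 4766 to 6679 CPM in live non-draining libraries. Thus on this scale the fixed non-draining libraries lay above the naive ones and the fixed draining libraries below them. With cells thinned to equal depth, the fixed non-draining and naive libraries overlapped. Against naive nodes, 16 of 37 genes were higher and 1 lower in fixed non-draining nodes (10.9% of all genes called), and 4 were lower in fixed draining nodes (0.767% of all genes lower), which share the naive libraries.

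The interaction was called for 23 of 37 genes, 22 of them with the live effect higher (3.06% of all genes called). Irf7 in monocytes and macrophages was at 218.8, 219.6 and 143.6 CPM in fixed draining, 887.9, 1017 and 605.3 CPM in fixed non-draining and 247.2 to 382.9 CPM in naive libraries. Its log2 fold change was -2.11 ± 0.18 (edgeR, adjusted p = 2.27e-07). Isg15 was at 178.8, 167.1 and 75.6 CPM in fixed draining and 470.0, 1011 and 317.6 CPM in fixed non-draining libraries, a wide spread in which library B was the highest. Its log2 fold change was -2.07 (edgeR, adjusted p = 1.25e-03). Ifit2 was at 39.2, 54.9 and 18.9 CPM against 183.8, 298.7 and 112.1 CPM (-2.39, edgeR, adjusted p = 6.80e-04), and Ifi27l2a at 1126, 1026 and 824.9 CPM against 2827, 2200 and 1988 CPM (-1.24 ± 0.17, adjusted p = 1.63e-04). Bst2 was not called, at 425.3, 347.3 and 418.1 CPM against 390.2, 485.4 and 411.0 CPM (edgeR, adjusted p = 0.805).

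Markers of monocytes and of macrophages also differed between the fixed nodes. Ly6c2, a marker of classical monocytes, was at 176.7 to 334.2 CPM in fixed draining and 925.5 to 1387 CPM in fixed non-draining libraries, while it was at 276.0 to 712.1 CPM in the other 3 groups. C1qa, which marks tissue macrophages, was at 1554 to 1934 CPM in fixed draining and 837.6 to 1318 CPM in fixed non-draining libraries. It was also separate between the live nodes, where the set hardly differed, at 1674 to 1771 CPM in live draining and 1136 to 1580 CPM in live non-draining libraries. These markers were chosen after the values were seen, and their part in the interferon result was not tested. The count of 26 was 17 without fixed draining library A, 14 without fixed draining library C, 13 without fixed non-draining library B and 10 with a stricter assignment of cells.

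Some genes of the set also rose in lymphocytes and dendritic cells between live nodes. In B cells 4 of 20 tested genes were higher (1.22% of all genes higher), namely Ifi27l2a, Isg15, Bst2 and Parp14, with Isg15 at 30.5, 37.6 and 62.0 CPM in live draining and 4.29, 7.78 and 9.49 CPM in live non-draining libraries (2.64 ± 0.41, edgeR, adjusted p = 9.77e-05). The live effect was higher than the fixed effect for 2 of these 20 genes (0.0897% of all genes higher), a count of 0 without fixed non-draining library A. In T cells 3 of 23 were higher (1.81%), namely Ifi27l2a, Isg15 and Bst2, and in plasma cells 1 of 12, Bst2 (0.486%). The T cell count was 1 without live draining library C or live non-draining library B or C, and the plasma cell count was 0 without live draining library A or B or live non-draining library B or C. Conventional dendritic cells had 5 of 35 higher (0.877%), a count that was 0 without live non-draining library C and 1 without live draining library A, and 2 with a higher live than fixed effect (0.219%), a count of 0 to 4 with a library left out. Migratory dendritic cells, which carry antigen from the skin, had 10 of 29 higher and 1 lower, Mx1 (10.5% of all genes called), and 1 with a higher live than fixed effect (0.303%), a count of 0 to 3 with a library left out. In them Isg15 was at 379.7, 595.2 and 557.1 CPM in live draining and 104.2, 34.2 and 50.3 CPM in live non-draining libraries (2.86 ± 0.25, edgeR, adjusted p = 3.57e-08), and the count of 11 called genes was 6 without live draining library C. Ifi27l2a was called higher in live draining nodes in every type tested except TRCs, plasma cells and monocytes or macrophages.

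The level of the set per cell was examined after each cell had been thinned to 2000 UMIs, which removes differences in depth. In fLECs the libraries' mean was 12.5 to 14.1 UMIs of the 37 genes per cell in live draining nodes, 4.97 to 6.11 in live non-draining, 5.52 to 5.55 in fixed draining, 5.88 to 6.70 in fixed non-draining and 6.88 to 7.36 in naive nodes. The tenth of fLECs with the most such UMIs held 23.3 to 30.1% of them in live draining and 20.6 to 28.6% in live non-draining libraries, ranges that overlapped. In MedLECs the means were 11.8 to 12.9 against 6.15 to 7.80, and in cLECs 11.3 to 11.7 against 7.39 to 8.59. In monocytes and macrophages they were 8.39 to 10.8 in fixed draining and 15.1 to 22.6 in fixed non-draining nodes, with 71 and 30 cells left out as too shallow. Naive libraries, at 11.5 to 15.5, and live draining libraries, at 14.4 to 16.1, overlapped the fixed non-draining ones. Live non-draining libraries were at 10.5 to 13.8. The fixed draining libraries stayed below the naive ones.

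**Figure D3:**
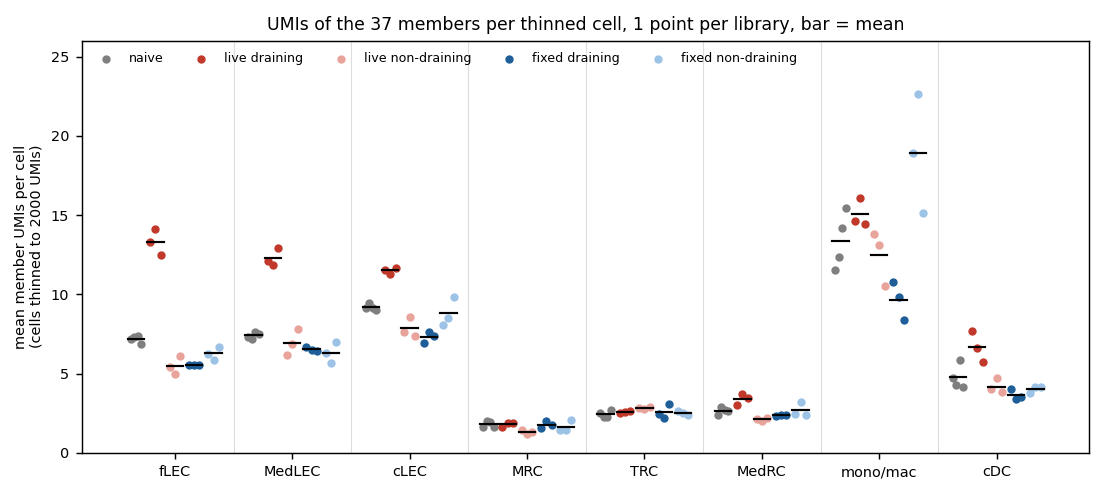
Mean UMIs of the 37 interferon stimulated genes per cell after thinning every cell to 2000 UMIs (y axis) in 8 cell types (x axis), with 1 point per library, colors for the 5 groups and a bar at each group's mean. The live draining libraries lie at 12.5 to 14.1 in fLECs and at 11.8 to 12.9 in MedLECs, above all other libraries of those types.

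Markers of other cells were low in the fLEC sums. Ptprc (CD45) was at 7.25 to 10.2 CPM in live draining and 4.37 to 12.2 CPM in live non-draining libraries, and the summed monocyte and macrophage markers were at 333.7 to 451.1 against 281.8 to 454.7 CPM, so neither was separate between the nodes. T cell markers were at 24.2 to 51.3 against 2.18 to 14.4 CPM and B cell markers at 38.0 to 79.0 against 17.5 to 35.4 CPM, both higher in live draining libraries without overlap. Cells with markers of 2 lineages, which were left out, made up 8.71 to 9.94% of live draining and 4.71 to 7.08% of live non-draining libraries. The part of these markers and cells in the result was not tested.

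Upstream of the set, 36 genes of the type I pathway were followed. None of the 11 ligand genes passed the filter in fLECs, and over all typed cells they had 78 UMIs among 233976802, of which 39 were in monocytes or macrophages and 0 in fLECs. Naive library A alone held 29 of the 78, and the live draining libraries held 4, 2 and 3. The receptor genes were not called. Ifnar1 was at 68.3, 80.9 and 94.5 CPM in live draining against 74.2, 89.2 and 84.4 CPM in live non-draining libraries (-0.01 ± 0.16, edgeR, adjusted p = 0.990), and Ifnar2 had a log2 fold change that did not pass the test (0.23 ± 0.12, edgeR, adjusted p = 0.236). Of 14 signaling genes tested 4 rose, where 8.08% of all genes were higher. Of 5 negative regulators 3 rose, among them Socs1 (1.36 ± 0.19, adjusted p = 1.52e-06). In MedLECs 7 of 22 genes of this list were higher (5.86% of all genes higher), also without a ligand or receptor.

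Genes known best as targets of interferon-gamma moved in the same direction in fLECs and TRCs. In fLECs 18 of 23 tested were higher in live draining nodes (8.08% of all genes higher), with a median log2 fold change of 1.46, beside 30 of 35 and 1.25 for the type I set. Cxcl9, a T cell chemokine, was at 3043, 4073 and 2646 CPM in live draining and 27.4, 203.0 and 24.7 CPM in live non-draining libraries (5.46 ± 0.31, adjusted p = 1.43e-15). In TRCs 18 of 22 were lower (4.49% of all genes lower) and none higher, with a median of -0.89, and Cxcl9 was at 241.9, 305.0 and 152.4 CPM against 592.4, 1123 and 833.3 CPM. Ifng itself had 27 UMIs in all typed cells, 19 of them in T cells. A further list of 56 interferon-induced genes had 29 of 38 higher in fLECs (8.08% of all genes), 22 of 38 in MedLECs (5.86%) and 14 of 46 in cLECs (9.79%; 1 was lower) between live nodes. In TRCs 10 of 41 were lower (4.49%) and 1 was higher. In MRCs 4 of 38 were higher. Of all genes in MRCs 13.3% were called in either direction, and the share called higher alone is not given, so these are not compared. Monocytes and macrophages had 26 of 50 of this list lower in fixed draining nodes (1.86%).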

How the data were processed

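The authors made and deposited raw UMI counts per gene and barcode for each of 16 libraries, with 10x Genomics 3' v3 chemistry and Cell Ranger 3.0.1 on mm10, and these were used as deposited. Library totals were 7486725 to 48945961 UMIs. Barcodes with 200 to 6000 genes and at most 30% mitochondrial UMIs were kept. Libraries shared at most 0.299% of their barcodes. Each cell was typed by marker genes that held no member, cells with markers of 2 lineages were left out, and no doublet caller was run. UMIs were summed per library and type with at least 10 cells. Sums were fitted over all 16 libraries with edgeR 4.0.16 (R 4.3.3), TMM, filterByExpr and the quasi-likelihood test, and Benjamini-Hochberg adjusted p-values were taken over all genes tested; a gene was called at an adjusted p under 0.05. Values of members and of the other interferon lists are CPM of the library and type, on totals of the filtered genes scaled by TMM. Cell type markers are CPM on unscaled totals. Fold changes with their SE come from the fit. CPM of 3' UMIs do not depend on transcript length. Differences between types used limma 3.58.1. Alternatives were DESeq2 1.42.0, other scaling and filters, a replicate block, at most 10% mitochondrial UMIs, a stricter assignment, at most 50 cells, and each library left out. Tested on simulated counts for fLECs between live nodes (9544 genes), 91% of 4-fold and 65% of 2-fold changes were recovered; between fixed nodes these were 89% and 58% in fLECs (9556 genes), 78% and 45% in MRCs (9749 genes) and 85% and 49% in monocytes or macrophages (9280 genes). Named genes are the 4 members with the highest mean CPM and the 4 with the smallest p between live nodes in a type; other members named were chosen after their values were seen. Members and lists were chosen with earlier results of these data known, and some genes are not reported here. Positions are from GENCODE M21 (GRCm38). The labels do not say that libraries of a group are separate animals, so p-values measure the spread between these libraries.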

Additional observations from a re-analysis of the deposited data

Results flagged for a closer look

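The summed level of the 37 genes in plasma cells was 2099 CPM in 1 naive library, and the other 3 naive libraries lay at 935.2, 1057 and 1058 CPM; the gap to the nearest of them was 0.894 of the group's range. Chance alone sets apart about 1 group in 20 by this criterion.

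By the interaction term in edgeR, live and fixed cells had unlike draining effects for 23 genes in fLECs, 14 in cLECs, 17 in MedLECs, 2 in cortical LECs and 34 in all LECs as 1 type. It differed for 2 genes in TRCs, 6 in MedRCs and 3 in all fibroblastic cells as 1 type. Among immune cells it differed for 23 genes in monocytes or macrophages, 2 in B cells, 2 in conventional dendritic cells and 1 in migratory dendritic cells. In fLECs, cLECs and MedLECs the live effect was the higher in each of these genes, whereas in monocytes or macrophages 22 genes had the higher and 1 the lower live effect.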

How the results depend on the processing

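The median log2 fold change of the set kept its sign over 23 settings in fLECs (1.15 to 1.48), MedLECs (1.00 to 1.28), cLECs (0.29 to 0.72) and TRCs (-0.54 to -0.18) between live nodes, and in monocytes or macrophages between fixed nodes (-1.27 to -0.88). Counts of called genes moved more, and the causes were not tested. With at most 50 cells per library the counts between live nodes were 6 in cLECs (12), 0 in TRCs (13), 0 in B cells (4), 0 in T cells (3) and 0 in monocytes or macrophages (2), where the value in parentheses is the one reported; between fixed nodes they were 2 in cLECs (4) and 0 in TRCs (1), and for the interaction 8 in cLECs (14), 1 in TRCs (2), 0 in B cells (2) and 11 in monocytes or macrophages (23). With it Ifi27l2a in TRCs turned from -0.23 to 0.56 between live nodes (edgeR, adjusted p = 0.357). DESeq2 gave 7 in TRCs and 1 in monocytes or macrophages between live nodes, and 0 for the interaction in TRCs. Without the count filter the values were 1 in fLECs and 13 in cLECs between fixed nodes, 5 in monocytes or macrophages between live nodes (3 of them higher), and 5 in TRCs, 5 in B cells and 2 in T cells (0) for the interaction. The same setting gave, for the interaction, 10 in blood endothelial cells (0), 10 in MedRCs (6), 7 in cortical LECs (2), 6 over all fibroblastic cells (3), 5 in conventional dendritic cells (2), 4 in migratory dendritic cells (1; 3 higher and 1 lower) and 2 in plasma cells (0). Between live nodes it gave 11 in conventional dendritic cells (5), 9 over all fibroblastic cells (5), 7 in blood endothelial cells (3) and 4 in plasma cells (1), and between fixed nodes 11 lower over all LECs (5), 7 lower in blood endothelial cells (0), 4 lower in cortical LECs (1) and 3 lower in MedRCs (1). With at most 10% mitochondrial UMIs 1 gene was called in T cells and 1 in monocytes or macrophages between live nodes. The stricter assignment gave 1 in T cells between live nodes, 10 in monocytes or macrophages between fixed nodes (26), and 0 in TRCs, 0 in B cells and 8 in monocytes or macrophages for the interaction.

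The labels do not say whether libraries of the same letter share an animal. Same-letter correlations of deviations ran from -0.0908 to 0.109 over 96 pairs, so the letters were not used to pair libraries. With the letter as a replicate block, 1 gene was called in fLECs and 7 in cLECs between fixed nodes, 5 in monocytes or macrophages between live nodes (3 higher), and 4 in TRCs and 4 in B cells for the interaction.

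Leaving out each library in turn gave, for live, fixed and interaction counts, 25 to 31, 0 to 1 and 17 to 25 in fLECs; 9 to 15, 0 to 6 and 13 to 17 in cLECs; 2 to 4, 0 and 0 in MRCs; 7 to 14, 0 to 1 and 0 to 3 in TRCs; 3 to 4, 0 and 0 to 3 in B cells; 1 to 3, 0 and 0 in T cells; and 0 to 2, 13 to 28 and 12 to 24 in monocytes or macrophages. The interaction in MedLECs was 10 without live non-draining library A and 11 without fixed non-draining library C. In monocytes or macrophages it was 13 without live non-draining library C, 14 without fixed draining library C and 12 without fixed non-draining library B. Without the count filter the median over all genes moved by up to -0.198 on the log2 scale (interaction in migratory dendritic cells), and no other alternative moved it by over 0.1. Few cells limit low genes, as in MRCs, cortical LECs and plasma cells.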
